A study of Mus musculus with 16 samples.

Results

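The comparison described here is the response of mouse liver to dexamethasone when the glucocorticoid receptor (GR) is knocked out in that organ. It was made on 8 of the 16 arrays of the study, 4 from GR-knockout mice given dexamethasone and 4 from GR-knockout mice without treatment, and covers all 18476 genes that passed a filter on dim probes. All mice were male C57BL/6 animals of 3 months, and the treatment note calls the knockout a liver knockout. The other 8 arrays, 4 untreated and 4 dexamethasone-treated wild-type livers, served to ask whether the response of a gene differed between genotypes. The titles of the knockout samples carry the letters PBS, the source names of the untreated mice say no treatment, and the treatment note speaks of vehicle, so it is not settled whether the untreated mice received an injection. The dose, the route, the time of sampling, the driver of the deletion and the exons removed are not named in the labels. Whether each replicate came from its own animal is also not said, so the p-values measure the spread between these samples, which may be technical.

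Dexamethasone is a synthetic glucocorticoid. It binds the glucocorticoid receptor, a transcription factor encoded by Nr3c1, which moves to the nucleus and raises or lowers the transcription of target genes. Hepatocytes make up most of the liver's mass, and a deletion restricted to them leaves the receptor in sinusoidal endothelial cells, Kupffer cells, stellate cells and lymphocytes, as well as in every other organ. Glucocorticoids are known in liver for gluconeogenesis and amino acid breakdown, and in immune cells for the loss of lymphocytes and the silencing of inflammatory genes.

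Nr3c1 itself was measured first, as a check of the genotype. Its brightest probe lay at 0.24, 0.45, 0.56 and 0.41 on the untreated knockout arrays and at -0.10, 0.44, 0.00 and 0.34 on the treated ones, in log2 units relative to the 75th percentile of each array, the scale of all levels below. The wild-type arrays lay between 1.93 and 2.52, with no overlap. The untreated knockout livers were lower than the untreated wild-type livers by 1.99 (log2 -1.99, limma adjusted p = 1.6e-05, n = 4 per group). The probe stayed well above background on every knockout array, and whole liver cannot tell residual transcript of other cell types from transcript of hepatocytes. With dexamethasone it changed by -0.24 in knockout liver (SE 0.14, adjusted p = 0.43).

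Untreated knockout array 1 stood apart from its group. Its 75th percentile of intensity was 308.7, against 524 to 692 on the other 7 knockout arrays, and its mean correlation with the other 3 untreated arrays was 0.963 across genes, against 0.975 to 0.980 for those. The difference was one of dim genes. With the genes ordered by mean signal and divided into 4 bins of 4619, its median deviation from the other 3 arrays of its group was 0.79 in the dimmest bin, 0.41 in the second, and 0.01 and -0.04 in the brighter ones. On the other 7 knockout arrays no bin deviated by more than 0.27. No slide carried more than 1 group, and slide and treatment therefore cannot be told apart.

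**Figure D1:**
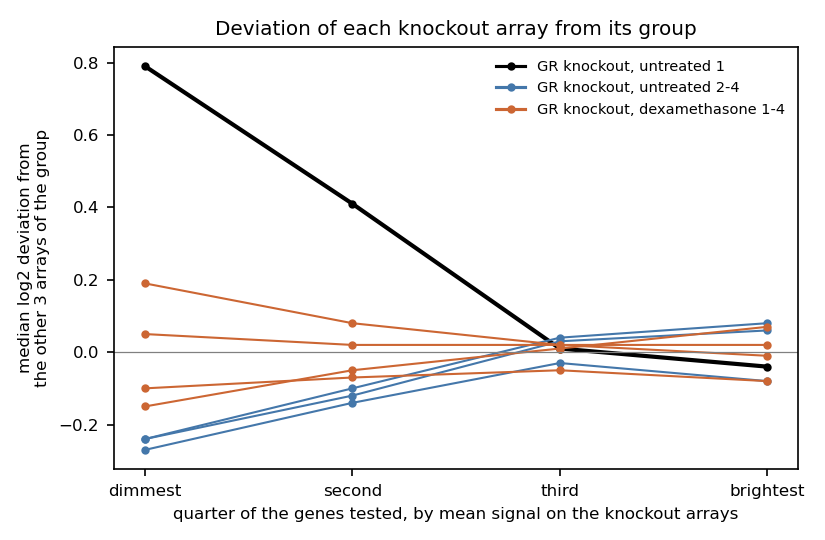
Median log2 deviation of each of the 8 GR-knockout arrays from the other 3 arrays of its group (y axis), in 4 bins of the genes tested ordered by mean signal (x axis). Untreated array 1 (black) reaches 0.79 in the dimmest bin and 0.01 in the third, while untreated arrays 2 to 4 (blue) and the treated arrays (orange) stay within 0.27 of 0.

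Limma called 664 of the 18476 genes in the knockout response at a Benjamini-Hochberg adjusted p under 0.05, which is 3.59% of those tested. Of these, 220 were higher with dexamethasone (1.19%) and 444 lower (2.4%). Without untreated array 1 the balance turned: 930 genes were called (5.03%), 592 higher and 338 lower. The genes called the same way with and without that array numbered 515 (2.79%), 201 higher and 314 lower, or 77.6% of the calls with all arrays and 55.4% of the calls without that array. Of the 415 genes called only without the array, 391 were higher. Of the 149 lost without it, 130 were lower. No gene was called in opposite directions. Signal mattered as well: 421 of the 515 lay in the dimmer 2 bins. The treated and untreated arrays did not overlap at all for 1781 genes (9.64%).

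A narrower set was called the same way in 3 fits, with all arrays, without untreated array 1, and after a model-based background correction (normexp) in place of the processed signal. It held 52 genes (0.281%), 23 higher and 29 lower, with changes of at least 0.68 on the log2 scale in either direction. Normexp alone called 53 genes, 23 higher and 30 lower, against 220 and 444 with the processed signal. Of the 52 genes, 18 lay in the dimmer 2 bins. The treated and untreated arrays of all 52 were separate. The accounts of single genes below begin with this set. Of the 30 genes named from it by size or by their difference from wild type, none lost its call when any 1 of the 8 knockout arrays was left out, and 10 lost it when only the knockout arrays entered the fit.

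Ccn2 and Lyve1 had the largest rises among the genes of this set with a symbol. Ccn2, a secreted matrix protein known as a target of the YAP and TEAD transcription factors, lay at 0.42, 0.23, 0.99 and 0.81 on the untreated knockout arrays and at 2.68, 2.99, 3.6 and 4.80 on the treated ones. The lowest treated array was above the highest untreated array, and the rise was 7.49-fold (log2 2.90, SE 0.40, adjusted p = 0.0021). Lyve1, a hyaluronan receptor of sinusoidal and lymphatic endothelium, lay at 0.11, 0.02, 0.55 and -0.37 untreated and at 2.25, 2.42, 2.56 and 3.39 treated. It rose 5.97-fold (log2 2.58, SE 0.33, adjusted p = 0.0013), and its second probe gave 2.79. Vcam1, an adhesion molecule that binds leukocyte integrins, lay at 0.47, 0.05, 0.49 and 0.59 untreated and at 1.76, 2.20, 2.86 and 3.61 treated. The groups were separate, the rise was 4.61-fold (log2 2.21, SE 0.33, adjusted p = 0.0034), and a second probe gave 1.58. Treated array 4 was the highest of its group for each of these 3 genes. Without untreated array 1 the changes were 2.84 for Ccn2, 2.59 for Lyve1 and 2.23 for Vcam1.

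Ddit4, an inhibitor of mTOR complex 1 and a textbook glucocorticoid target, also rose in knockout liver. Its levels were 3.49, 2.25, 1.92 and 2.97 untreated and 5.67, 4.51, 4.79 and 5.64 treated, a 5.63-fold rise (log2 2.49, SE 0.49, adjusted p = 0.013). Untreated array 1 was the highest of its group, and without it the rise was 2.77 on the log2 scale. Map3k6, a stress-activated kinase, lay at -1.0, -2.11, -1.52 and -2.03 untreated and at 0.03, 0.21, 0.27 and 0.69 treated (log2 1.96, SE 0.37, adjusted p = 0.011). The treated arrays lay close together and above all untreated ones, and a second probe gave 2.06. Ms4a8a and Ms4a6d, membrane proteins of the MS4A family, rose as well. Ms4a8a lay at -2.74, -4.39, -4.64 and -3.19 untreated and at -2.09, -1.55, -1.22 and -1.0 treated (log2 2.28, SE 0.37, adjusted p = 0.0055). It was a dim gene, with 1.33 under normexp. Ms4a6d changed by 1.45 (SE 0.25, adjusted p = 0.0063). Among smaller rises in the set were the related chloride channel regulators Clca3a2 (1.38) and Clca3a1 (1.10), whose probes may share transcripts, the gamma-glutamyltransferase Ggt5 (1.17), Mylip (1.07), a ubiquitin ligase for the LDL receptor, and the transmembrane collagen Col13a1 (0.89).

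The smallest adjusted p-values of the whole response belonged to features with no current symbol. The transcript listed as 1200016E24Rik lay at 1.06, 0.77, 1.51 and 0.83 untreated and at 4.47, 3.6, 3.99 and 4.82 treated, and rose 9.06-fold (log2 3.18, SE 0.30, adjusted p = 0.00044). NAP066348-1 lay at 0.92, 0.17, 0.87 and 0.26 untreated and at 3.74, 2.87, 3.27 and 4.23 treated, a 7.85-fold rise (log2 2.97, SE 0.30, adjusted p = 0.00049). TC1533348 rose by 2.57 (SE 0.28, adjusted p = 0.00080). In all 3, treated arrays 4 and 1 were the highest and treated array 2 the lowest. NAP030859-1 went down by 1.60 in knockout liver (log2 -1.60, SE 0.16, adjusted p = 0.00049). In wild type it rose by 1.10 (adjusted p = 0.001), and the difference between genotypes was -2.70 (SE 0.23, adjusted p = 0.00015). Because these features have no gene to name them, the 60-base probes of those with the smallest p are given, as they stand in the deposited files and in lower case. The first matches chr7:15194166-15194225 of mm7, the second is listed for chrX:7904169-7913965, a span longer than the probe, and the third has no position in the files.
1200016E24Rik: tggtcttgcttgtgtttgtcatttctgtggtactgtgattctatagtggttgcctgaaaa
NAP066348-1: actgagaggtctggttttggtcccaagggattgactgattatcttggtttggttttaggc
NAP030859-1: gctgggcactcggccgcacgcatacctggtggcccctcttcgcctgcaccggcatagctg

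Tspan18 had the largest fall of the set. Tspan18, a tetraspanin of endothelial cells, lay at 0.09, -0.82, -0.45 and -1.73 untreated and at -3.06, -3.66, -4.12 and -4.67 treated, an 8.88-fold fall (log2 -3.15, SE 0.44, adjusted p = 0.0021). The groups were separate, and under normexp the change was -1.63. Aif1, a calcium-binding protein of macrophages, lay at 3.30, 2.44, 1.98 and 2.56 untreated and at 0.63, 0.74, 1.18 and 0.85 treated. Untreated array 1 was the highest, the fall was 3.29-fold (log2 -1.72, SE 0.26, adjusted p = 0.0035), and without that array the change was -1.47. Fabp7, a fatty acid binding protein, lay at 0.57, 0.00, -0.12 and -0.01 untreated and at -1.21, -1.34, -1.41 and -1.97 treated (log2 -1.59, SE 0.24, adjusted p = 0.0034). Ngfr, a neurotrophin receptor of stellate cells and nerves, fell by 1.51 (SE 0.22, adjusted p = 0.0034), although a second, dimmer probe gave 0.70 (adjusted p = 0.15). Ccnd2, a D-type cyclin of lymphocytes, fell by 1.18 (SE 0.17, adjusted p = 0.0029), and its other probes gave -1.01 and -0.97. Phf11a (-1.23), the nuclear body protein Sp110 (-1.12) and the GTPase regulator Fam13a (-1.11) completed the largest falls. For Fam13a, 2 other probes gave -0.68 and -0.39, not called. Untreated array 1 lay highest for Phf11a (0.03, against -0.60 to -0.57), and without it the change was -1.07. Smaller falls in the set included the adhesion molecule Icam2 (-0.89), the integrin Itga9 (-1.03), the parathyroid hormone receptor Pth1r (-0.97), the actin-binding Cotl1 (-0.98) and the secreted nuclease Dnase1l3 (-0.82).

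**Figure D2:**
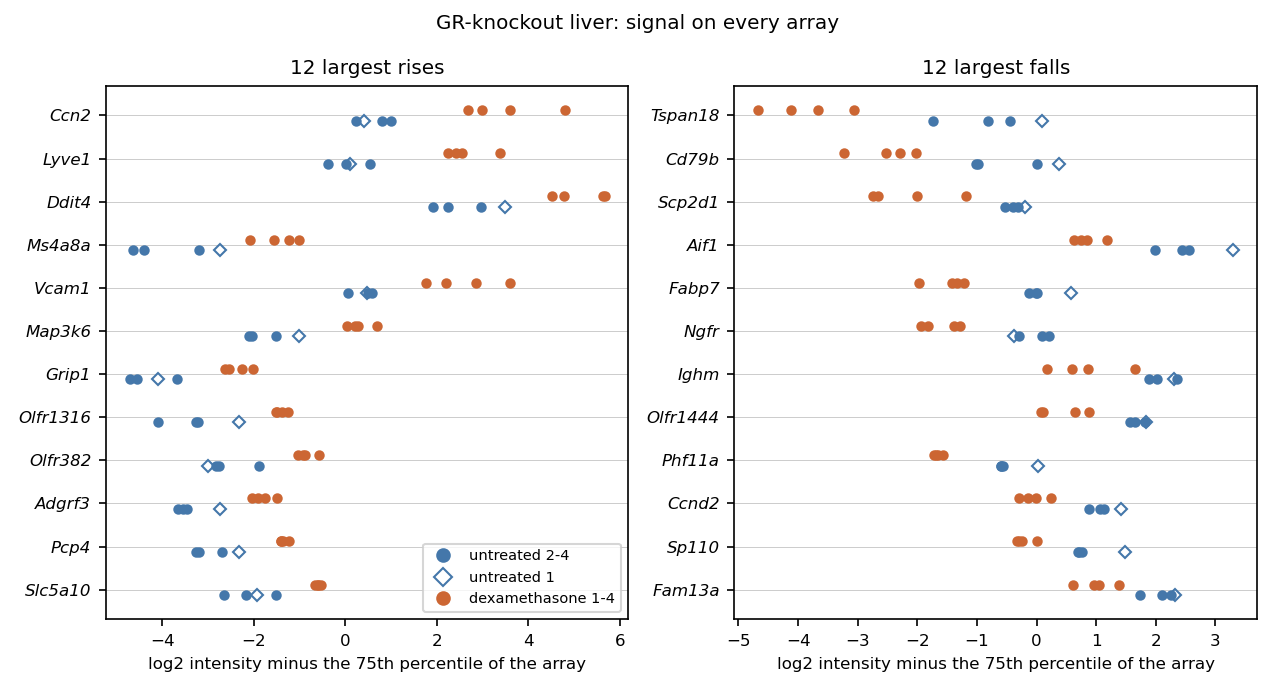
Log2 intensity relative to the array's 75th percentile (x axis) on each of the 8 GR-knockout arrays for the 12 largest rises (left) and 12 largest falls (right) among genes with a symbol that were called in 3 fits. Blue points are untreated arrays 2 to 4, open diamonds untreated array 1 and orange points the treated arrays. The colours do not overlap for any gene, which the choice of genes required, and Ccn2 treated array 4 reaches 4.80.

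The response of these genes was next compared with wild-type liver, whose arrays are separate. In wild type 2215 genes were called (12%), and the interaction, the test of whether the response differs between genotypes, was called for 849 (4.6%). Of the 52 genes, 33 were called in wild type in the same direction, 15 higher and 18 lower, and none of these 33 passed the interaction. Another 4 had the same sign without a call in wild type, Adgrf3 and Slc5a10 with a called interaction and Btg1 and Ctdsp2 without. The other 15 had the opposite sign, all with a called interaction, and 6 of them were called in the opposite direction in wild type. Over all genes tested, 60.5% had the same sign in both genotypes, and 54.3% without untreated array 1. In the wider set of 515 genes 230 had the same sign (44.7%), 153 of these were called in wild type, and 265 passed the interaction. The 52 and the 515 were chosen by their knockout change, which is also part of the interaction. Their counts of called interactions therefore cannot be weighed against the 4.6% of all genes. The 153 were 29.7% of the 515 and 6.91% of the wild-type calls.

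For most of the largest rises and falls described so far the wild-type change had a similar size. Lyve1 rose by 2.41 in wild type (SE 0.33), and the difference between genotypes was 0.17 (SE 0.47, adjusted p = 0.94). Ccn2 rose by 2.35 in wild type (difference 0.56, SE 0.57), Ms4a8a by 2.20 (difference 0.08, SE 0.53) and Vcam1 by 1.46 (difference 0.74, SE 0.46). Ddit4 and Map3k6 had the larger wild-type values, 3.38 and 2.68, and their differences of -0.89 (SE 0.69, adjusted p = 0.62) and -0.72 (SE 0.53, adjusted p = 0.59) did not pass the test. Both also lay lower in untreated knockout than in untreated wild-type liver, by values of -1.45 (adjusted p = 0.12) and -1.24 (adjusted p = 0.086) that did not pass the test and use the same untreated knockout arrays. Tspan18 changed by -3.02 in wild type (difference -0.13, SE 0.62), Aif1 by -1.61 (difference -0.11, SE 0.37) and Ngfr by -1.54 (difference 0.03, SE 0.32). 1200016E24Rik changed by 2.61 (difference 0.57, SE 0.42). The standard errors leave room for differences of about the size of the smaller changes, so a missing call does not show that the responses were equal.

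The response of 17 of the 52 genes differed from wild type by the interaction, 8 with a higher and 9 with a lower value in knockout. Grip1, a scaffold protein of synapses, lay at -4.09, -4.71, -3.68 and -4.55 on the untreated knockout arrays and at -2.25, -2.62, -2.55 and -2.01 on the treated ones. It rose by 1.90 (SE 0.26, adjusted p = 0.0021), against -0.56 in wild type (interaction 2.46, SE 0.37, adjusted p = 0.0032). It was above background on 3 of 4 untreated knockout arrays, and another probe of the gene gave 0.10 (adjusted p = 0.97). The olfactory receptor genes Olfr1316 (1.81) and Olfr382 (1.76), the adhesion receptor Adgrf3 (1.55), the calmodulin regulator Pcp4 (1.52) and the sugar transporter Slc5a10 (1.48) rose, with interactions of 2.28, 2.55, 1.33, 1.77 and 1.21. Adat1, a tRNA deaminase, lay at 0.74, 0.55, 0.48 and 0.73 untreated and at 1.52, 1.54, 1.37 and 1.34 treated, a rise of 0.82 (SE 0.16, adjusted p = 0.014), while it fell by 0.91 in wild type (interaction 1.73, SE 0.23, adjusted p = 0.0018). The transcript 2410017I17Rik rose by 1.11, with an interaction of 1.44 (adjusted p = 0.0052).

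In the other direction, Scp2d1, a sterol carrier domain protein, lay at -0.20, -0.31, -0.53 and -0.39 on the untreated knockout arrays and at -1.18, -2.66, -2.75 and -2.01 on the treated ones. It fell by 1.79 (SE 0.31, adjusted p = 0.0063) and rose by 1.35 in wild type (SE 0.31, adjusted p = 0.011), and the interaction was -3.14 (SE 0.43, adjusted p = 0.0021). Cd3e, a subunit of the T cell receptor complex, lay at 0.46, 0.11, 0.00 and 0.21 untreated and at -0.86, -0.72, -0.58 and -0.75 treated, a fall of 0.92 (SE 0.12, adjusted p = 0.0018). In wild type it changed by 0.18 (interaction -1.11, SE 0.18, adjusted p = 0.0038). The interactions were -2.09 for Olfr1444, -1.58 for Tango6, a protein of Golgi organisation, -1.53 for Pip5k1c, a phosphoinositide kinase, and -0.91 for Lpo, lactoperoxidase. Between the untreated groups the difference, knockout minus wild type, ran from -1.23 (Olfr382) to -0.29 (Adat1) for the genes of the preceding paragraph. It ran from 0.42 (Cd3e) to 1.32 (Scp2d1) for those named here. These values use the same untreated knockout arrays as the response and the interaction. Without untreated array 1 the interaction was still called for each gene named here and in the preceding paragraph. Under normexp it was lost for Olfr1316, Adgrf3, Pcp4, Slc5a10 and Lpo, with adjusted p-values of 0.05 to 0.14. With only the knockout arrays in the fit, Olfr1316, Scp2d1, Pip5k1c, Tango6 and Lpo lost the call of their knockout response.

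**Figure D3:**
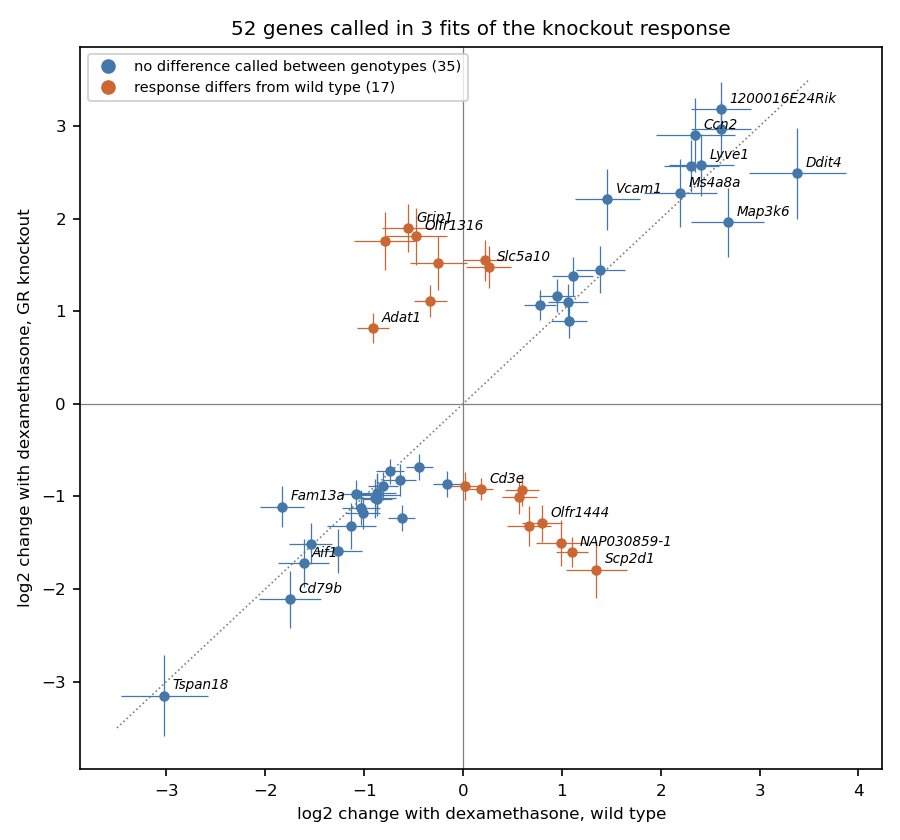
Log2 change with dexamethasone in GR-knockout liver (y axis) against wild-type liver (x axis) for the 52 genes called in 3 fits of the knockout response, with standard errors as bars and the line of equal change dotted. The genes in blue had no called difference between genotypes and all share their sign, and the 17 in orange had a called difference, among them Scp2d1, which went down by 1.79 in knockout and up by 1.35 in wild type.

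Glucocorticoid-induced genes known from many tissues were measured next. Of 21 tested members, 2 rose in knockout liver, Ddit4 and Fkbp5, beside 1.19% of all genes. In wild type 11 of them rose, beside 960 of all 18476 genes. The median change was 0.50 in knockout and 1.06 in wild type, beside medians over all genes tested of 0.00 and -0.03. Fkbp5, a co-chaperone of steroid receptors, lay at -4.62, -2.88, -2.94 and -2.86 untreated and at -1.66, -1.22, -1.24 and 0.51 treated. Untreated array 1 was the lowest by far and treated array 4 the highest. The change was 2.42 (SE 0.61, adjusted p = 0.043), and without untreated array 1 it was 1.99 (adjusted p = 0.082). The call was lost without any 1 of 7 of the 8 knockout arrays, and under normexp (1.56, adjusted p = 0.18). The metallothioneins Mt1 (2.80, SE 1.01) and Mt2 (2.82, SE 1.14) and the cell cycle inhibitor Cdkn1a (1.80, SE 0.81) had large values with large errors and did not pass (adjusted p = 0.15, 0.22 and 0.28). Gadd45b, a stress sensor, changed by 0.77 in knockout and 5.69 in wild type, with an interaction of -4.92 (adjusted p = 0.0043), and Sult1e1, the estrogen sulfotransferase, by 2.17 and 6.27 (interaction -4.09, adjusted p = 0.041), although it was above background on 2 of 4 untreated knockout arrays. These 2 were the only members of the list with a called interaction, beside 4.6% of all genes. Over the 960 genes called higher in wild type the median change was 0.92 there and 0.20 in knockout, and over the 1255 called lower it was -0.83 and -0.18. Without untreated array 1 the knockout medians were 0.19 and -0.14.

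Among genes that handle glucocorticoids, the mineralocorticoid receptor gene Nr3c2 was the only one of 10 tested members called, beside 3.59% of all genes. It lay at -3.13, -4.22, -3.63 and -3.33 untreated and at -2.46, -1.85, -2.70 and -2.53 treated, a rise of 1.20 (SE 0.26, adjusted p = 0.022) against -0.47 in wild type (interaction 1.66, SE 0.37, adjusted p = 0.021). It is a dim gene, and under normexp neither its change (0.72) nor its interaction (0.95, adjusted p = 0.27) was called. Hsd11b1, the enzyme that regenerates active glucocorticoid, changed by -0.01 (SE 0.21). With 3.59% of all genes called, a short list can easily hold no call. In 13 of the 25 pathway lists no member was called in knockout liver, with or without untreated array 1. These hold 263 tested genes of PXR and CAR targets, acute phase, complement, clock, cholesterol and fatty acid synthesis, fatty acid oxidation, bile acid, stress, cell cycle, oxidative phosphorylation, class I presentation and periportal functions, of which 26 had an unadjusted p under 0.05 in limma, beside 3087 of the 18476 genes tested. In wild type 42 of the 263 were called, 23 of them higher, beside 12% of all genes. A called interaction was found for 12 of the 263, beside 4.6% of all genes. One of these was the clock output gene Dbp, at -0.17 in knockout (SE 0.27) and -2.74 in wild type (interaction 2.57, adjusted p = 0.0032).

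Single metabolic genes nevertheless changed. Gatm, the first enzyme of creatine synthesis, lay at 0.38, -0.76, -0.79 and -1.16 untreated and at -2.95, -2.23, -3.05 and -4.41 treated, a fall of 2.58 (SE 0.43, adjusted p = 0.0056), and the wild-type change was -2.16. The treated arrays were all below the untreated ones, and under normexp the change was -1.56 (adjusted p = 0.054). Ppp1r3g, a glycogen-targeting subunit of protein phosphatase 1, lay at -0.74, 0.43, 1.81 and 0.36 untreated and at -3.91, -3.01, -2.28 and -1.24 treated (log2 -3.07, SE 0.71, adjusted p = 0.029). Its wild-type change was -4.04, and its call in knockout was lost without any 1 of 6 of the 8 arrays. Lgr5 (-1.54, SE 0.36, adjusted p = 0.029) and Axin2 (-1.09, SE 0.21, adjusted p = 0.011), Wnt targets of pericentral hepatocytes, fell, as 2 of 14 members of that list, beside 2.4% of all genes. Lgr5 changed by -2.22 in wild type and Axin2 by 0.09, with a called interaction for Axin2 only (-1.18, adjusted p = 0.035). Under normexp neither change was called, at -1.12 for Lgr5 and -0.30 for Axin2, and the Axin2 interaction was -0.34 (adjusted p = 0.83). Stat5b, which carries the growth hormone signal, fell by 0.63 (SE 0.14, adjusted p = 0.023), a call lost under normexp (adjusted p = 0.091), with only the knockout arrays, and without any 1 of 3 arrays. The gluconeogenic enzyme Pck1 was at -1.24 (SE 0.35, adjusted p = 0.068).

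Several immune lists had medians below that of all genes tested, as did others: the median was -0.71 for 7 neutrophil and monocyte markers, none of them called, -0.45 for 9 cholangiocyte markers and -0.32 for 14 pericentral genes. Without untreated array 1 these medians were -0.44, -0.27 and -0.33. Under normexp with all arrays they were 0.03, -0.06 and -0.35, beside 0.06 for all genes tested. MHC class II genes present peptides to helper T cells, and Ciita is the coactivator that switches them on. Of 10 tested members 3 fell, beside 2.4% of all genes, with a median of -0.60 in knockout and -0.61 in wild type. Ciita lay at -1.91, -2.67, -3.11 and -2.0 untreated and at -4.40, -4.20, -4.52 and -4.32 treated, a fall of 1.94 (SE 0.25, adjusted p = 0.0013) with no overlap. H2-Oa and H2-DMb1, chains of the accessory molecules that govern peptide loading, fell by 1.20 (SE 0.22, adjusted p = 0.0078) and 1.39 (SE 0.31, adjusted p = 0.025). The presenting chains H2-Ab1 (-0.55), H2-Aa (-0.38) and H2-Eb1 (-0.56) and the invariant chain Cd74 (-0.38) did not pass the test. Under normexp Ciita was at -0.55, H2-Oa at -0.27 and H2-DMb1 at -1.27, none of them called. The H2-DMb1 call was also lost without any 1 of 4 of the 8 knockout arrays. Of 25 interferon-stimulated genes 2 fell in knockout, beside the same 2.4% of all genes. These were Oasl2 (-1.13, SE 0.20, adjusted p = 0.0065) and Ifit2 (-1.05, SE 0.18, adjusted p = 0.0065), with wild-type changes of -1.11 and -1.02. In wild type 16 of the list fell and 2 rose, where 12% of all genes were called, and the medians were -0.32 in knockout and -1.11 in wild type. The interaction was called for 4 members, among them Isg15 (-0.05 in knockout, -1.34 in wild type). Both called genes lost the call under normexp, with -0.73 for Oasl2 and -0.15 for Ifit2.

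Class II promoters carry an X box and a Y box, the sites at which the Ciita-recruiting complex assembles. Promoter sequences of RefSeq (GRCm38.p6) were held for 8 of the 11 listed genes. The 250 bases before the start were searched on both strands for TGATTGG, a Y box, and for an X box core, AAC and ATGATG with any pair of bases between them, letters chosen after the sequences were seen. The first was found in 6 of the 8 genes, against 7.23% of 32851 promoters, and the second in 4 of the 8, against 0.119%. The last 150 bases before the start are printed for 2 genes that fell, H2-DMb1 (chr17:34153041-34153190, plus strand) and H2-Oa (chr17:34092229-34092378, plus strand), and for 2 that did not pass the test, H2-Eb1 (chr17:34305717-34305866, plus strand) and H2-Aa (chr17:34287824-34287973, minus strand). Capitals mark the searched letters, read 5′ to 3′ on the strand of the gene.
H2-DMb1: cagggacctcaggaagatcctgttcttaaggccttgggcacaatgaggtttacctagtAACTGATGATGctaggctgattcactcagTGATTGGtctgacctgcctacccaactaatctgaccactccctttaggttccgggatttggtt
H2-Oa: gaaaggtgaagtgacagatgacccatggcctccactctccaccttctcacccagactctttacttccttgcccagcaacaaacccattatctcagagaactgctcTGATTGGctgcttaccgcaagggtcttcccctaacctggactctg
H2-Eb1: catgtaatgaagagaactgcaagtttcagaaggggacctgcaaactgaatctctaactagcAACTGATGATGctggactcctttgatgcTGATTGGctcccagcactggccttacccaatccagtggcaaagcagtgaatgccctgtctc
H2-Aa: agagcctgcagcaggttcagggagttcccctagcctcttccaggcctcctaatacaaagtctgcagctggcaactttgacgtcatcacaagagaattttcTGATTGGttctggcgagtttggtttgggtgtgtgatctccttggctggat
The Y box began 45 to 63 bases before the start in these 4 genes and was present in genes that fell and in genes that did not pass the test.

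Of 14 tested B cell markers 5 were called lower, beside 2.4% of all genes, and none higher, with and without untreated array 1, and the median was -0.97 with all arrays and -0.77 without that array. Cd79b, a signalling chain of the B cell receptor, lay at 0.37, 0.01, -0.98 and -1.02 untreated and at -3.23, -2.52, -2.29 and -2.02 treated (log2 -2.11, SE 0.31, adjusted p = 0.0029). Fcmr, the IgM receptor, fell by 2.42 (SE 0.32, adjusted p = 0.0017), Ms4a1, the CD20 antigen, by 3.06 (SE 0.53, adjusted p = 0.0065) and Ighm, the IgM heavy chain, by 1.32 (SE 0.25, adjusted p = 0.0099), where another probe gave -0.57, not called. Ms4a1 was above background on 1 of 4 treated arrays and Fcmr on 3 of 4, so the sizes of their falls rest partly on background. The fifth was Fcer2a, at -1.26. Among the other markers, Cd79a was at -0.05 and Pax5 at 0.23. Only Cd79b and Ighm were also called under normexp, and the median of the list was then 0.08. With only the knockout arrays in the fit, the calls of Cd79b, Ighm and Ms4a1 were lost and that of Fcmr was kept. The summed level of the list, in multiples of the array's 75th percentile, ranged from 5.66 to 8.89 on the untreated knockout arrays and from 2.20 to 4.35 on the treated ones, without overlap. Ighm had the highest level in this sum, and without it the sums were 1.47 to 3.93 and 1.08 to 1.25, still without overlap. With Ighm, in wild type it was 2.87 to 2.97 and 1.24 to 1.58. In whole liver fewer cells of a type and less RNA per cell cannot be told apart.

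Plasma cell markers went both ways. Of 5 tested, Ighg1 fell by 1.08 and Sdc1, a proteoglycan that hepatocytes also make, rose by 0.85 (SE 0.22, adjusted p = 0.048, and 0.062 without untreated array 1). The Sdc1 call was lost without any 1 of 7 of the 8 knockout arrays. The summed level of the 5 markers was 11.4 to 22.5 untreated and 26.1 to 34.5 treated, and without Sdc1 it was 3.91 to 8.85 and 6.93 to 8.55, which overlap. Of 16 T and NK cell markers 2 fell, beside 2.4% of all genes, Cd3e and the granzyme gene Gzmb (-0.98, SE 0.22, adjusted p = 0.023). Gzmb was at -0.05 under normexp (adjusted p = 0.96), and at 0.15 under normexp without untreated array 1. Without that array Cd5, a T cell receptor regulator, was called higher (0.66, adjusted p = 0.047). For the list, summed levels were 3.1 to 4.36 untreated and 2.59 to 3.47 treated. Of 16 Kupffer cell markers the scavenger receptor Msr1 alone fell (-0.82, SE 0.19, adjusted p = 0.029), beside 2.4% of all genes. It was at -0.35 under normexp (adjusted p = 0.57) and lost its call without any 1 of 5 of the 8 arrays. Without untreated array 1 the scavenger receptor Cd163 was called higher (1.13, adjusted p = 0.027). The summed levels of 106 to 188 untreated and 85.7 to 135 treated overlapped. Sinusoidal endothelial markers went both ways, with Lyve1 higher and Dnase1l3 and Kdr, the VEGF receptor, lower (Kdr -1.03, SE 0.24, adjusted p = 0.033, and 0.057 without untreated array 1). The Kdr call was lost without any 1 of 4 of the 8 knockout arrays. Stab1 (0.36), Stab2 (-0.17) and Mrc1 (-0.06) did not pass the test, the median over the 15 tested markers was -0.06, and the summed levels were 62.6 to 85.0 untreated and 60.3 to 71.3 treated. None of the 13 tested hepatocyte markers was called, beside 3.59% of all genes. At an unadjusted p under 0.05 in limma there were 0, beside 3087 of the 18476 genes tested. Alb, the albumin gene, changed by -0.30 (SE 0.19). Its spot was saturated on 3 of 4 untreated and on all 4 treated arrays, so that its change is not measured. The summed level of the hepatocyte markers was 4440 to 6300 untreated and 4340 to 5080 treated, and without Alb 3300 to 4340 and 3330 to 3860. Untreated array 1 gave the highest sum of its group for B cells (8.89), Kupffer cells (188) and T and NK cells (4.36). Without it the medians of these lists were -0.77, -0.13 and -0.26, against -0.97, -0.35 and -0.40 with it. Under normexp with all arrays they were 0.08, -0.29 and 0.16. Other lists were affected too: the sum on that array was the highest of its group for hepatocytes (6300) and sinusoidal endothelium (85.0), and the lowest for plasma cells (11.4).

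**Figure D4:**
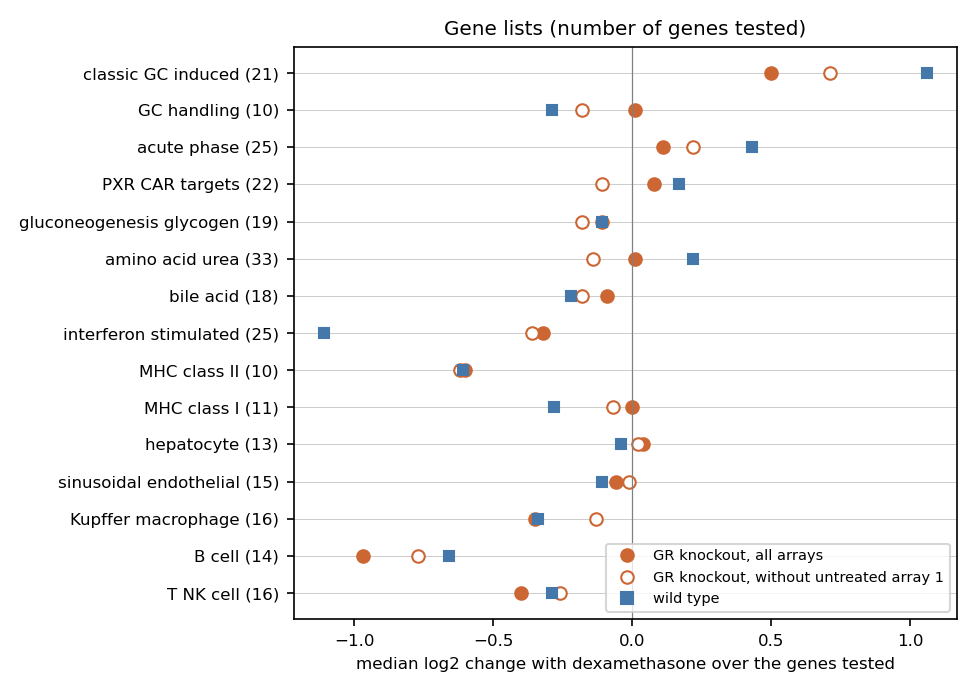
Median log2 change with dexamethasone (x axis) over the tested genes of 15 gene lists (y axis, with the number tested; GC stands for glucocorticoid) in GR-knockout liver with all arrays (filled orange), without untreated array 1 (open orange) and in wild-type liver (blue squares). Glucocorticoid-induced genes have medians of 0.50 and 0.71 in knockout against 1.06 in wild type, and MHC class II genes lie near -0.60 in each.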

How the data were processed

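Total liver RNA was labelled with Cy3 and hybridised to 1-colour Agilent mouse arrays. The deposited spot signals are intensity values, and the background, outlier and saturation marks are flags of unit other, per the file headers. Agilent Feature Extraction 9.5 is named in the submitters' processing notes. The deposited series table repeats the processed intensity (largest difference 0). Control and outlying spots (0.31%) were removed. Each array's log2 processed signal was set relative to its 75th percentile. Probes detected on at least 3 of the 4 arrays in some group were kept (26794), and the brightest represented each of 18476 genes, 15154 of them with a current symbol. Probe positions are on mm7. One limma model (limma 3.58.1, R 4.3.3) estimated the 4 groups from all 16 arrays, with 12 residual degrees of freedom, two-sided tests and Benjamini-Hochberg adjustment over all genes.

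Genes were named by rule: the 12 largest rises and 12 largest falls called in 3 fits without overlap, at most 6 per direction of the interaction, and from each of 42 lists at most 4 called members or, with fewer than 2 called, the brightest 2. Other genes, including the features without a symbol, were picked after their values were seen. Members and lists were chosen with earlier results of these data known. Alternatives were normexp (offset 50), quantile normalization, another centring, other filters, only the knockout arrays, other variance models, array weights, a replicate block and leaving out single arrays. The model was tested on simulated data. The number of arrays limits the precision.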

Additional observations from a re-analysis of the deposited data

Results flagged for a closer look

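In 116 groups of 4 arrays (58 genes, both knockout groups), 5 held an array far from its 3 group mates, each time untreated knockout array 1. Chance alone marks about 1 in 20 groups, so the count by itself does not stand out. All 5 nevertheless fell on 1 array, the one that stood apart from its group above. It lay above the others for Fabp7 (0.57, against -0.12 to 0.00), Phf11a (0.03, against -0.60 to -0.57), Sp110 (1.49, against 0.69 to 0.76) and Pip5k1c (1.18, against 0.50 to 0.62), and below them for Fkbp5 (-4.62, against -2.94 to -2.86).

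The response differed between genotypes by a called interaction in 19 of the 58 genes. Some of the 58 had been named for their called interaction, so this count was partly fixed by the choice of genes. It therefore cannot be weighed against the 4.6% of all genes tested that had a called interaction. The value was higher in knockout for Grip1 (2.46), Olfr1316 (2.28), Olfr382 (2.55), Adgrf3 (1.33), Pcp4 (1.77), Slc5a10 (1.21), Adat1 (1.73), 2410017I17Rik (1.44), Nr3c2 (1.66) and the actin regulator Enah (2.30). Enah was above background on 0 of 4 untreated knockout arrays, and its rise in knockout was at least 1.52-fold. Without a filter on dim probes, where another probe can represent the gene, its change was -0.54. The value was lower in knockout for Scp2d1 (-3.14), Olfr1444 (-2.09), Pip5k1c (-1.53), Cd3e (-1.11), Tango6 (-1.58), Lpo (-0.91), Axin2 (-1.18), the matrix protease Mmp7 (-2.70) and the immunoglobulin chain Ighg1 (-1.73). Ighg1 fell by 1.08 in knockout (SE 0.14, adjusted p = 0.0018) and rose by 0.65 in wild type (adjusted p = 0.010). Under normexp the interaction was lost for Mmp7 (-0.78, adjusted p = 0.56), Enah (0.67, adjusted p = 0.64), Axin2 (-0.34, adjusted p = 0.83) and Nr3c2 (0.95, adjusted p = 0.27), and for Olfr1316, Adgrf3, Pcp4, Slc5a10 and Lpo.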

How the results depend on the processing

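Against 664 genes called in the knockout response, 515 called with and without untreated array 1, and 328 called in the knockout response and also in the interaction, the counts were 53, 53 and 13 under normexp. Normexp without untreated array 1 gave 212 (169 higher, 43 lower) and 85 for the first and the last. Quantile normalization gave 1091 and 557, array weights 2121 (1185 higher, 936 lower) and 1173, no filter on dim probes 416 and 213, only the knockout arrays 139 for the response, and a 2-fold minimum 438. Leaving out 1 knockout array gave 312 (treated array 3) to 930 (untreated array 1) for the response, with 400 without untreated array 2, 393 without treated array 2 and 397 without treated array 4. For the last count it gave 165 (treated array 3) to 531 (untreated array 1), with 207 without untreated array 2, 185 without treated array 2 and 218 without treated array 4. With the replicate number as a block the counts were 804 and 473. Residuals of same-numbered knockout arrays correlated at 0.339, -0.186, 0.003 and 0.250, which does not settle whether the numbers pair the samples. Of 27 called list members, 17 lost the call without some 1 knockout array, 25 under normexp and 21 with only the knockout arrays. Direction turned for Enah without a filter (-0.54), a setting in which another probe can represent the gene. It also turned for Mmp7 (0.01) and Ccr7 (0.11) under normexp. Under normexp without untreated array 1 it turned for Mmp7 (0.15), Ccr7 (0.30), Gzmb (0.15) and Gp1bb (0.10). The cause was not tested. Signal near background limits the dim genes.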
